A study of Mus musculus with 62 samples.

Results

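The genes of MHC class I antigen presentation were followed through 62 neocortex libraries of female mice. The set holds 10 genes of the 47643 in the deposited table, chosen by name: B2m, H2-D1, H2-K1, H2-T23, Tap1, Tap2, Tapbp, Psmb8, Psmb9 and Nlrc5. Mice of 2 months had received melanoma cells that cause cachexia, a wasting of muscle and fat (CAC), melanoma cells that do not (NCAC), or a mock injection (Con, called mock here). Tissue was taken 2, 4, 6 and 8 weeks later, with 7 libraries for CAC at 8 weeks and 5 for each of the other 11 groups. The design text names NCI Ath/nude mice, read here as athymic nude, which lack a thymus and so most T cells, whereas the sample labels name C57BL/6J, and the files do not settle which is right.

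A class I molecule is a heavy chain bound to beta-2 microglobulin and a short peptide, shown on the cell surface to CD8 T cells and natural killer cells. The peptides are cut by the proteasome, in which interferon replaces some catalytic subunits by inducible ones, then pumped into the endoplasmic reticulum by the TAP transporter and loaded with the help of tapasin. In the healthy brain the pathway is known to be low in neurons and higher in microglia and endothelium, and interferons induce it in most cells.

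All 10 genes lie in the mouse genome build GRCm38 as annotated by GENCODE vM21, and 8 of them in or next to the MHC on chromosome 17. Tapbp is at chr17:33915899-33929292 on the plus strand and H2-K1 at chr17:33996017-34000347 on the minus strand. A tight cluster follows, with Psmb9 at chr17:34181987-34187764 (minus), Tap1 at chr17:34187553-34197225 (plus), Psmb8 at chr17:34197721-34201454 (plus) and Tap2 at chr17:34203527-34216321 (plus). H2-D1 is at chr17:35262730-35267499 (plus) and H2-T23 at chr17:36029773-36032855 (minus). Outside the MHC are B2m, at chr2:122147686-122153083 (plus), and Nlrc5, at chr8:94434356-94527272 (plus).

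Promoter windows, from 250 bases before to 50 bases after the annotated start, were available from RefSeq on GRCm38.p6 for 8 of the 10 genes, and 4 are shown because they carry elements known from class I genes or are shared by a pair of the genes. Capitals mark matches to the motifs searched on both strands: an interferon-stimulated response element core (GAAANNGAA), a gamma-activated site (TTCNNNGAA), a kappaB site (GGGNNTTCC) and a CRE-like X2 box core (TGACGC). The windows are chr17:34000298-34000597 (minus strand) for H2-K1, chr17:35262844-35263143 (plus) for H2-D1, chr2:122147437-122147736 (plus) for B2m and chr17:34187306-34187605 (plus) for Tap1, each written 5′ to 3′ on its gene's strand.
H2-K1: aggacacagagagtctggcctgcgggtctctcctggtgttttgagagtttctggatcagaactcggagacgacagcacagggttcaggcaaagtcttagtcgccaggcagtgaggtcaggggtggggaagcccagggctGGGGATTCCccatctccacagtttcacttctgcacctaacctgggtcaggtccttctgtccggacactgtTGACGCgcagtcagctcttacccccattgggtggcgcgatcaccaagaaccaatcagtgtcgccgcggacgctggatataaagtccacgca
H2-D1: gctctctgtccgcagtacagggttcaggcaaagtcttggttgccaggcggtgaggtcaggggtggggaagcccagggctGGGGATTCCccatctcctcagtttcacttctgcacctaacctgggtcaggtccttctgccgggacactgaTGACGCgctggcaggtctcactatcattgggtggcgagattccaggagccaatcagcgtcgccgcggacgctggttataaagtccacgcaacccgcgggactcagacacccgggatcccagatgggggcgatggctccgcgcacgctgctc
B2m: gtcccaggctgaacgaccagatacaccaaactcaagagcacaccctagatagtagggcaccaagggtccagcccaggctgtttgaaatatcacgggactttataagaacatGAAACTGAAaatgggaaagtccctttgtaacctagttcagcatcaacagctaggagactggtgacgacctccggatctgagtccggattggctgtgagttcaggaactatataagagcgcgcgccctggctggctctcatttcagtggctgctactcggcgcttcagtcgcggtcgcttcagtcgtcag
Tap1: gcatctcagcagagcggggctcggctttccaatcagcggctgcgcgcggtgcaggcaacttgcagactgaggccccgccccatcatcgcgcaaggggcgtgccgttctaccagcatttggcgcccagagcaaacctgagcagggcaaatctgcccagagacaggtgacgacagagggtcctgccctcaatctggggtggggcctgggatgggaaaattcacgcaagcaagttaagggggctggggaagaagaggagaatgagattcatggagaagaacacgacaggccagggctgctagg

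H2-K1 and H2-D1 both held GGGGATTCC and TGACGC, at -111 and -41 from the start in H2-K1 and at -171 and -101 in H2-D1. The same motifs occurred in 5.72% and 7.5% of all 27025 promoter windows of this length. With the H2-D1 window shifted by 60 bases, 176 of 240 bases (73.3%) were identical to H2-K1, with a longest shared run of 47 bases. B2m held the response element core GAAACTGAA at -139, a motif found in 8.57% of all windows, and H2-T23 held it on the other strand as TTCTCTTTC at -123. Psmb8 held the gamma-activated site TTCCCAGAA at -97, a motif found in 8.47% of windows. Tap1 and Psmb9 point away from each other, with starts 226 bases apart in the RefSeq annotation and 275 bases common to their windows, which held none of these letters. A match describes these letters only and says nothing of binding. Other forms of these elements were not searched, so a window without a match may still hold one.

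Values are TPM, a share of all transcripts that is scaled for gene length, as the authors deposited them. Read depth estimated from the steps of low values was 44.9 to 50.7 M reads per library, so depth was alike across groups. In the median library 1 TPM corresponds to 28.1 reads for a transcript of 2000 bases. B2m thus rested on a median of about 2263 reads per library, whereas Psmb9 rested on 56.9 and Nlrc5 on 32.2. The excitatory neuron markers Slc17a7 and Camk2a had mean levels of 1062 and 1380 TPM. Outside the mock library described next, the striatum markers summed to 181 to 2307 TPM and the choroid plexus markers to 22.6 to 3111 TPM. How much tissue other than neocortex each library holds was not tested. Lane 3 held 24 libraries (week 2, CAC of week 4, and 4 of the 5 NCAC libraries of week 4), and lane 4 the other 38.

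Before any comparison, the mock library of replicate 5 at 8 weeks stood apart. It was the highest of all 62 libraries for 10 of the 10 class I genes, a position it held for 2.82% of the 14494 genes tested (409 genes), and this count was made after the values were seen. Of the tested genes, 19 reach a mean of 1 TPM only through it, none of them a class I gene of the set, and without these it was highest for 2.71%. Comparisons that include the mock group of 8 weeks are given with and without it.

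Across the 62 libraries the levels per gene length spanned several orders. The light chain B2m had the highest median level, 183 TPM, with 136 TPM in its lowest and 935 TPM in its highest library. Of the heavy chains, the classical H2-D1 and H2-K1 had median levels of 34.4 and 19.6 TPM, and H2-T23, which encodes the nonclassical Qa-1 seen by receptors of natural killer cells, 7.98 TPM. Tapbp, the gene of tapasin, had a median level of 22.6 TPM. The subunits of the transporter were uneven, with 6.26 TPM for Tap2 and 1.51 TPM for Tap1. The inducible proteasome subunits Psmb8 and Psmb9 had medians of 2.60 and 1.11 TPM, and Nlrc5, the transactivator of class I genes, 0.275 TPM. A filter on a mean of at least 1 TPM left 9 of the 10 genes for testing, the same number with or without the mock library of replicate 5, and Nlrc5 did not pass it.

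**Figure D1:**
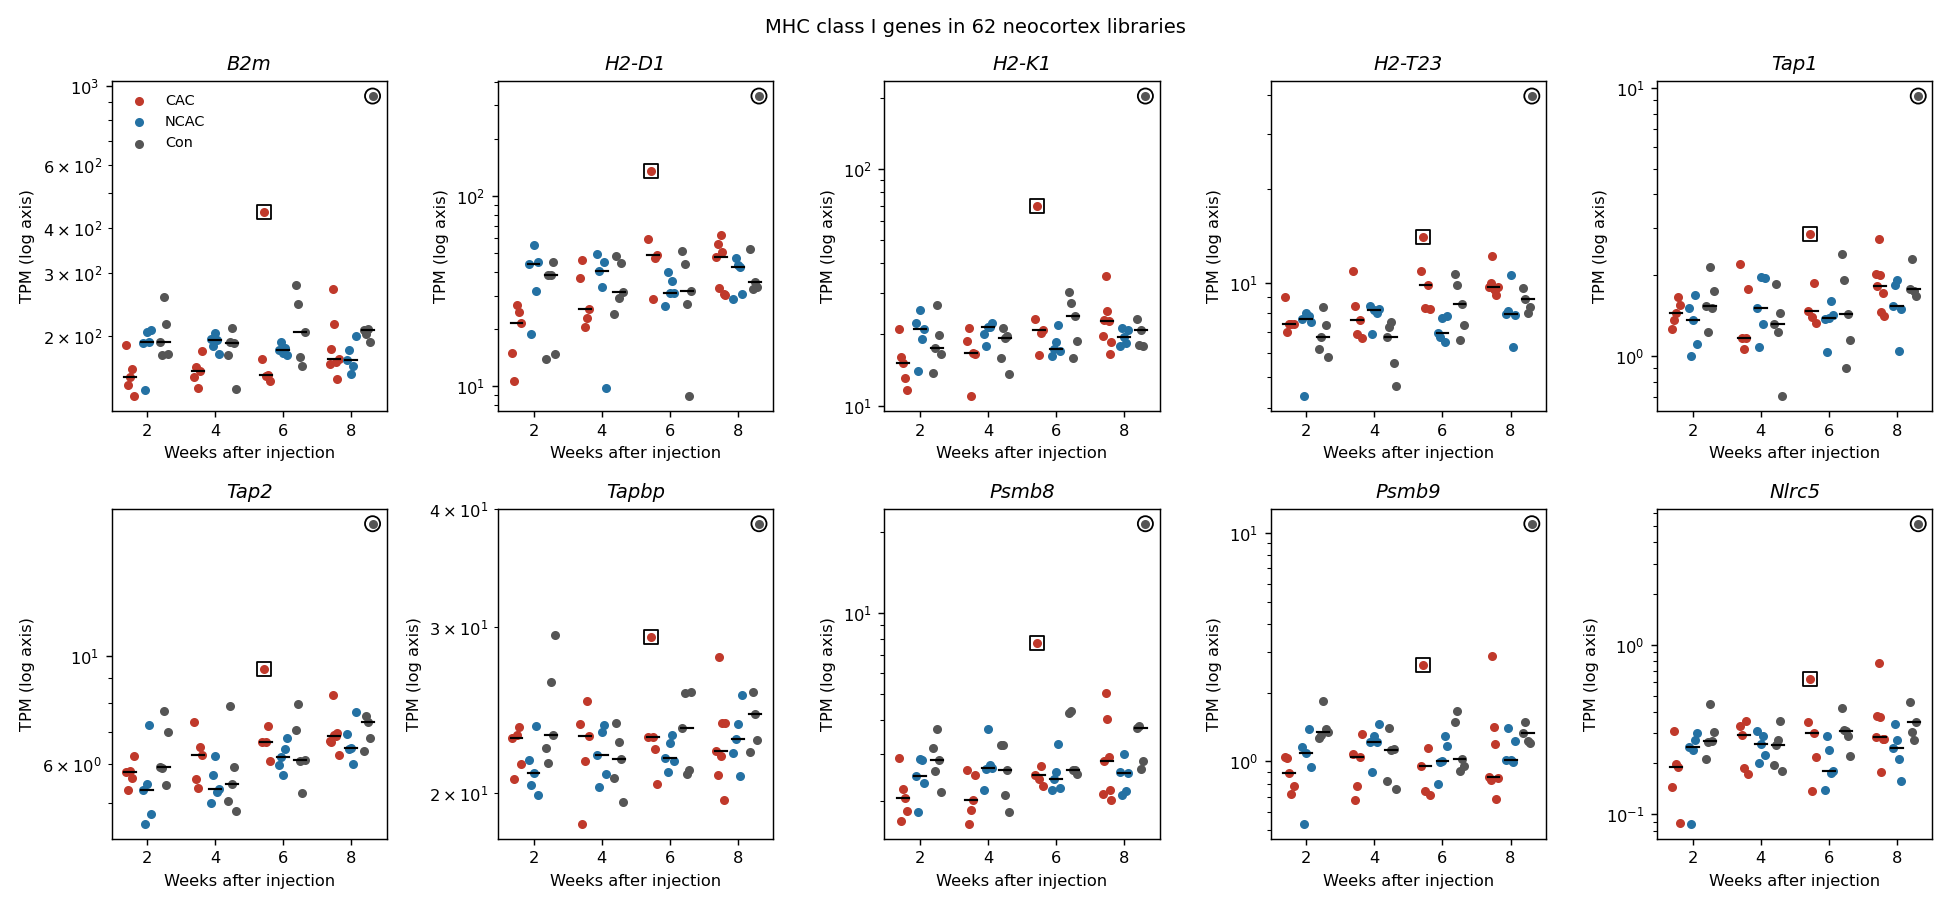
TPM of each class I gene (vertical log axis) in every library, by weeks after injection (horizontal axis), with CAC, NCAC and mock (Con) side by side in each week and a black bar at each group's median. The circled mock library of replicate 5 at 8 weeks is the highest point in all 10 panels, and the boxed CAC library of replicate 2 at 6 weeks is the highest of its group in all 10.

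In group means, mock at 8 weeks ranked highest of the 12 groups for all 10 genes, and this rank rested on replicate 5. B2m averaged 349 ± 327 TPM in mock at 8 weeks with all 5 libraries and 203 ± 7.48 TPM with the other 4 (SD). H2-D1 averaged 98.0 ± 133 TPM with all 5 and 38.5 ± 9.61 TPM with 4, and H2-K1 56.6 ± 82.0 and 19.9 ± 2.58 TPM. H2-T23 averaged 14.9 ± 13.8 TPM with all 5 libraries and 8.75 ± 0.70 TPM with 4. Without the library, mock at 8 weeks was no longer the highest group for any of the 10 genes.

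For the transport and loading genes the pairs of means, with 5 and with 4 libraries, were 3.36 ± 3.34 and 1.87 ± 0.284 TPM for Tap1, 9.33 ± 5.19 and 7.02 ± 0.513 TPM for Tap2, and 26.7 ± 6.82 and 23.7 ± 1.57 TPM for Tapbp. For the inducible subunits they were 6.88 ± 8.13 and 3.25 ± 0.606 TPM for Psmb8 and 3.24 ± 4.32 and 1.31 ± 0.127 TPM for Psmb9. Nlrc5 averaged 1.31 ± 2.15 TPM with all 5 libraries and 0.348 ± 0.0805 TPM with 4. In each case the SD of the 5 libraries was far above that of the 4.

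The lowest group mean was that of CAC at 2 weeks for B2m, H2-D1, H2-K1, Psmb9 and Nlrc5. B2m averaged 157 ± 20.2 TPM there, H2-D1 19.6 ± 6.70 TPM, H2-K1 15.4 ± 3.63 TPM, Psmb9 0.895 ± 0.147 TPM and Nlrc5 0.187 ± 0.0821 TPM (SD, n = 5). Psmb8 was lowest in CAC at 4 weeks (2.13 ± 0.415 TPM), H2-T23 and Tap1 in mock at 4 weeks (6.35 ± 1.19 and 1.31 ± 0.415 TPM), and Tap2 and Tapbp in NCAC at 2 weeks (5.46 ± 1.05 and 21.3 ± 1.44 TPM). Without the mock library, CAC at 6 weeks ranked highest for B2m, H2-D1, H2-K1, H2-T23, Tap2 and Psmb8, with mean levels of 215 ± 127, 64.2 ± 41.7, 30.1 ± 22.2, 10.3 ± 2.40, 7.20 ± 1.29 and 3.53 ± 2.37 TPM. Tap1 and Nlrc5 were then highest in CAC at 8 weeks (1.88 ± 0.443 and 0.365 ± 0.197 TPM) and Tapbp and Psmb9 in mock at 2 weeks (24.5 ± 3.28 and 1.43 ± 0.232 TPM).

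The order of the 12 group means was loose. With all libraries, none of the 11 gaps between neighbours in that order exceeded the larger of the neighbours' SDs for any of the 10 genes. Without the mock library 1 gap did so for B2m and 1 for H2-T23, and none for the other 8 genes.

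Mice of a group differed more in most of these genes than in a typical gene. The SD within groups, on the log2(TPM + 1) scale, was 0.72 for H2-D1, 0.54 for H2-K1, 0.42 for Psmb8 and 0.39 for B2m, against a median of 0.14 over the genes tested. Without the mock library it was 0.61 for H2-D1, 0.35 for H2-K1, 0.29 for Psmb8 and 0.27 for B2m. Tapbp was the steadiest of the tested class I genes, with an SD of 0.15 with all libraries and 0.13 without that one. Nlrc5 had an SD of 0.30 with all libraries and 0.12 without it.

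The mock library of replicate 5 at 8 weeks was then set against its own 4 group mates. B2m was at 935 TPM in it, against 208, 203, 209 and 193 TPM in the mates. H2-D1 was at 336 TPM, against 52.8, 32.5, 35.4 and 33.2 TPM in the mates, and H2-K1 at 203 TPM, against 23.2, 17.95, 20.8 and 17.8 TPM. The mates stayed close together, and the lone library was above each of them. Its levels were 4.55 times the mates' median for B2m, 9.81 times for H2-D1 and 10.5 times for H2-K1.

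H2-T23 was at 39.6 TPM in that library, against 8.06 to 9.67 TPM in its mates, a ratio of 4.58 to their median. Psmb8 was at 21.4 TPM against 2.64 to 3.80 TPM (6.52 times), and Psmb9 at 10.96 TPM against 1.202 to 1.48 TPM (8.59 times). The transporter genes were at 9.32 TPM against 1.67 to 2.29 TPM for Tap1 (5.30 times) and 18.6 TPM against 6.40 to 7.54 TPM for Tap2 (2.63 times). Nlrc5 had the largest ratio of the 10, with 5.16 TPM against 0.274 to 0.459 TPM (15.7 times), and Tapbp the smallest, with 38.6 TPM against 22.1 to 25.6 TPM (1.64 times). The chains and the inducible subunits therefore stood further out than the loading factor tapasin.

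The rest of the pathway was read from gene lists chosen with earlier results of these data known. Of 15 other class I heavy chains in the table, with no filter on level, 10 had their highest level of the 62 libraries in it. Of the 8 tested, 7 did, against 2.82% of all genes tested. H2-Q4, named after its value was seen, was at 48.2 TPM in it, against 2.47 to 6.16 TPM in the mates. Of the 5 constitutive proteasome genes, including Psmb5, Psmb6 and Psmb7, none was highest there, and their summed level was 504 TPM, against 507 to 554 TPM in the mates. Of 28 interferon-induced genes in the table, again with no filter, 23 were highest there. Of the 24 that were tested 19 were highest there, and 22 of the 24 pass the filter on level without this library too. Irf1, a regulator of class I promoters, was at 13.02 TPM against 4.27 to 5.04 TPM.

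Genes of MHC class II and of lymphocytes moved with it. All 7 class II genes were highest there, with a summed level of 1146 TPM against 35.7 to 45.2 TPM in the mates, and Cd74, the invariant chain, was at 611 TPM against a mates' median of 7.69 TPM. All 7 B cell markers, of which 3 were tested, were highest there, with a sum of 955 TPM against 57.5 to 68.1 TPM. The kappa light chain Igkc made 652 TPM of that sum. Both counts use no filter on level, and 2.82% of all genes tested were highest there. H2-DMb1 of the class II list and Jchain of the B cell list reach a mean of 1 TPM only through this library. Igkc, Cd3g and Cd3e, like C1qa further on, were singled out after their values were seen. Of 15 T and NK cell markers in the table, with no filter on level, 12 were highest there, but 0 of the 2 that were tested. Most of this list is near the floor, with a gene at 0 in as many as 59 of the 62 libraries. Cd3g was at 7.49 TPM against 0 in each mate, and Cd3e at 3.20 TPM against 0 to 0.10 TPM. The sum of the T and NK list, most of it Trbc2 and Cd4, was 76.9 TPM against 34.5 to 59.6 TPM. The microglia markers summed to 1234 TPM against 654 to 703 TPM, with 2 of 14 highest there, and 2 of 6 astrocyte markers were highest too. Neuron, choroid plexus, erythroid, striatum and thalamus lists had no gene at its highest level in that library. The part of these cell types in the class I levels was not tested. In bulk tissue, more cells of a type and more RNA per cell cannot be told apart.

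A CAC library, replicate 2 at 6 weeks, was the highest of its group for all 10 genes. It was also the highest of the 61 libraries left for 7 of the 9 tested genes, a position it held for 2.32% of all genes tested (336 genes), again counted after the values were seen. B2m was at 442 TPM in it, against 172, 155, 156 and 149 TPM in its mates. H2-K1 was at 69.6 TPM, against 23.3, 16.4, 20.3 and 20.9 TPM, and H2-D1 at 136 TPM, against 59.3, 28.7, 47.5 and 49.3 TPM. These are ratios of 2.85, 3.38 and 2.81 to the mates' median, each smaller than in the mock library. Psmb8 and Psmb9 were 3.15 and 3.12 times the mates' median, and Tapbp 1.30 times.

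What moved beside class I differed between these 2 libraries. In the CAC library none of the 7 class II genes was the highest of the 61, and their sum was 59.8 TPM against 34.7 to 46.6 TPM in its mates. The B cell markers summed to 35.6 TPM, within the 21.9 to 38.9 TPM of the mates, and Cd3e and Cd3g were at 0. The microglia markers summed to 1301 TPM against 586 to 619 TPM, with 8 of 14 at the highest level of the 61, among them C1qa, a complement component, at 331 TPM against 108 to 122 TPM. Of the 28 interferon-induced genes, with no filter on level, 14 were the highest of the 61, and of the 24 tested 11 were. Their part in the class I levels was not tested.

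**Figure D2:**
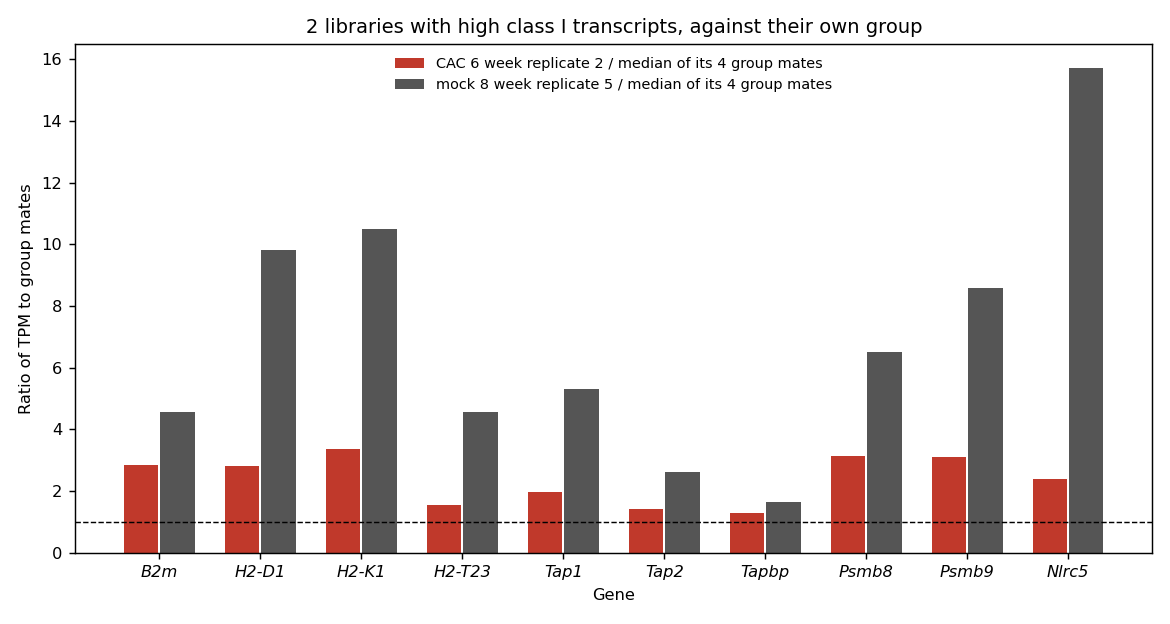
Ratio of TPM to the median of the group mates (vertical axis, starting at 0; dashed line at 1) for each class I gene (horizontal axis), in the CAC library of replicate 2 at 6 weeks (red) and the mock library of replicate 5 at 8 weeks (grey), with n = 4 mates each. The CAC bars reach 3.38 for H2-K1 and are lowest at 1.30 for Tapbp, and the mock bars reach 15.7 for Nlrc5 and are lowest at 1.64 for Tapbp.

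A further CAC library, replicate 3 at 8 weeks, was the highest of its group for 9 of the 10 genes, with 270 TPM of B2m against 152 to 215 TPM in the 6 others of its group. Its erythroid genes summed to 22527 TPM, the highest of all libraries. It is 1 of 3 libraries that stand apart in markers of other tissue. Results at 8 weeks are therefore also given without it where it changes a call.

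The study asked how the neocortex changes as cachexia develops, and the class I genes were read in limma's moderated test over all 14494 genes, with Benjamini-Hochberg adjustment and a call at an adjusted p under 0.05. No class I gene passed in any of 17 comparisons with all libraries. In CAC against mock, 4.28%, 0.0414%, 1.63% and 8.6% of all genes were called at 2, 4, 6 and 8 weeks, and in CAC against NCAC 0%, 0.0069%, 9.65% and 6.02%. In NCAC against mock the shares were 8.71% at 2 weeks and 0% at 4, 6 and 8 weeks. Where no gene at all was called, 89, 953 and 636 genes had an unadjusted p under 0.05 in NCAC against mock at 4, 6 and 8 weeks, 616 did in CAC against NCAC at 2 weeks, and voom, run on estimated reads, called 0 too. A share of 9 genes near these backgrounds would be 0 or 1, so the absence of calls does not set the class I genes apart.

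At 8 weeks, 9 of 9 tested genes had lower mean log2 levels in CAC than in mock, with a median log2 fold change of -0.45 against 0.015 over all genes. B2m ranged from 152 to 270 TPM with a median of 172 TPM in the 7 CAC libraries, against 208, 203, 209, 193 and 935 TPM in mock. Its log2 fold change was -0.56 ± 0.22 (SE, adjusted p = 0.0985). Psmb8 ranged from 2.02 to 5.03 TPM with a median of 2.83 TPM in CAC, against 3.74, 3.80, 2.64, 2.82 and 21.4 TPM in mock, and differed by -0.59 ± 0.24 (adjusted p = 0.110). Psmb9 ranged from 0.682 to 2.90 TPM with a median of 0.853 TPM in CAC, against 1.33, 1.48, 1.22, 1.202 and 10.96 TPM in mock, and differed by -0.57 ± 0.22 (adjusted p = 0.0936). The groups overlapped for each of these genes. Tap1, Tap2 and Tapbp had an unadjusted p under 0.05 as well, with differences of -0.37, -0.27 and -0.19 and adjusted p of 0.217, 0.199 and 0.177.

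Without the mock library of replicate 5 these differences were small. B2m then differed by -0.12 ± 0.16 (adjusted p = 0.764), Psmb8 by -0.11 ± 0.18 (0.801) and Psmb9 by -0.10 ± 0.15 (0.798). Tap1, Tap2 and Tapbp were at -0.0045, -0.013 and -0.055. H2-D1, H2-K1 and H2-T23 were at -0.45, -0.49 and -0.24 with all libraries and at 0.18, 0.17 and 0.17 without that one, a change of sign. The median over the 9 genes was -0.01, none had an unadjusted p under 0.05, and 5.93% of all genes were still called. Conversely, without the CAC library of replicate 3 the mock library remained and 3 genes passed: B2m at -0.65 ± 0.22 (adjusted p = 0.0441), Psmb9 at -0.71 ± 0.22 (0.0207) and Psmb8 at -0.70 ± 0.24 (0.0459). Without mock replicate 3, Psmb8 alone passed, at -0.77 ± 0.25 (adjusted p = 0.0457). With both the mock library of replicate 5 and the CAC library of replicate 3 left out, which was added after seeing the data, none passed.

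NCAC against mock at 8 weeks shares these mock libraries and gave the same picture for the 9 genes. All 9 were lower in NCAC, with a median of -0.59, and 7 had an unadjusted p under 0.05, each with an adjusted p of 0.896. B2m was at 171, 183, 157, 165 and 200.5 TPM in NCAC. The groups overlapped, since the NCAC library of 200.5 TPM lay above the mock library of 193 TPM, and the difference was -0.66 ± 0.23. Psmb8 differed by -0.76 ± 0.26, H2-K1 by -0.68 ± 0.33, Psmb9 by -0.59 ± 0.24, Tap1 by -0.54 ± 0.20, H2-T23 by -0.52 ± 0.20 and Tap2 by -0.32 ± 0.14. Without mock replicate 5 the median was -0.10, the differences ranged from -0.28 for Psmb8 to 0.00 for H2-D1, and no class I gene had an unadjusted p under 0.05, with 0% of all genes called (332 genes at an unadjusted p under 0.05). CAC against NCAC at 8 weeks, which uses no mock library, had a median difference of 0.16 over the 9 genes, 8 of them above 0, and none with an unadjusted p under 0.05 with all libraries, against 1 without the mock library.

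**Figure D3:**
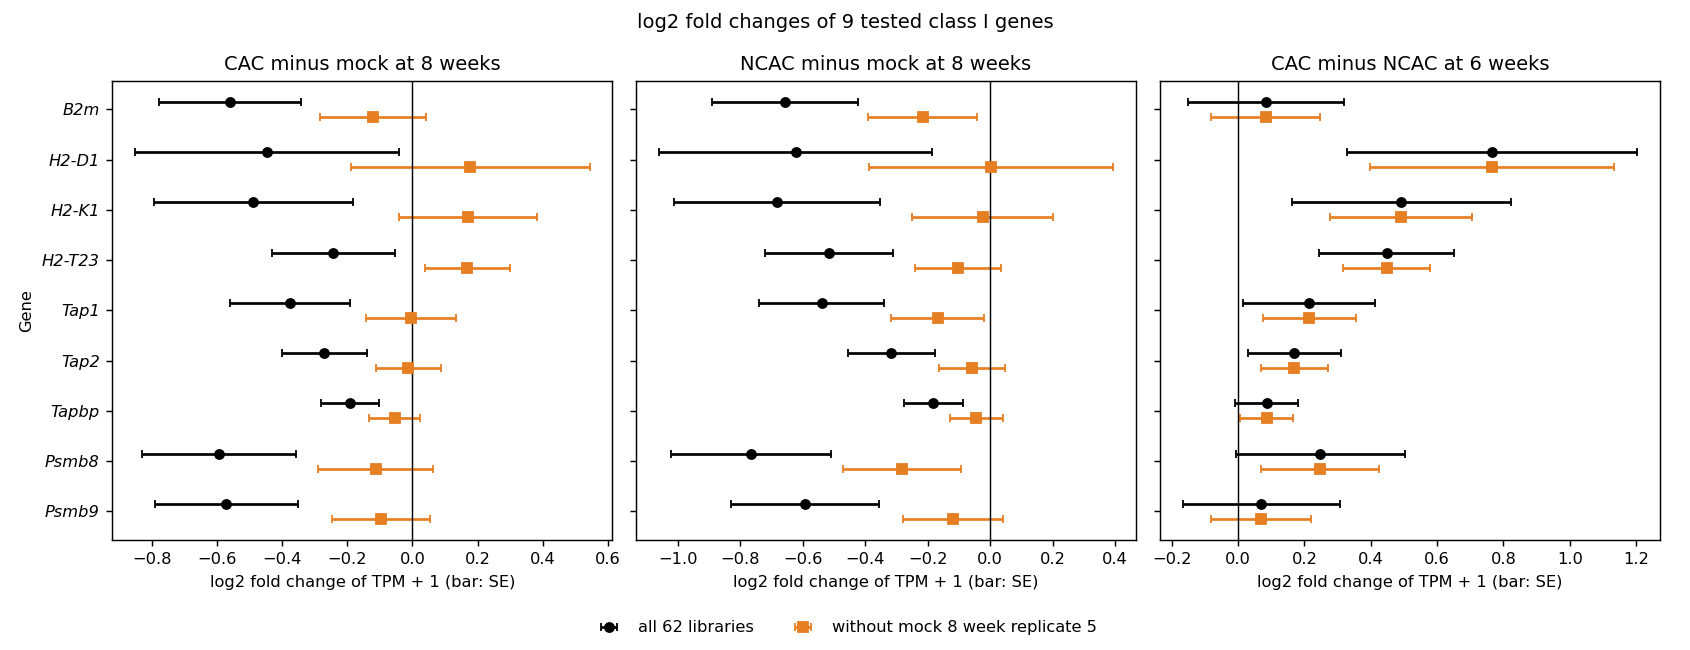
log2 fold changes of TPM + 1 (horizontal axis, bars are SE) for the 9 tested class I genes (vertical axis) in 3 comparisons, with all 62 libraries (black circles) and without the mock library of replicate 5 at 8 weeks (orange squares). At 8 weeks the black points lie between -0.19 and -0.59 in CAC against mock and the orange ones between -0.12 and 0.18, whereas at 6 weeks the points of CAC against NCAC stay in place and the error bars shorten.

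At 6 weeks H2-T23 was higher in each CAC library than in any NCAC library. It was at 10.9, 14.1, 8.30, 9.84 and 8.25 TPM in CAC, against 6.93, 6.73, 7.74, 6.48 and 7.88 TPM in NCAC. The mock group of that week overlapped both, at 10.7, 9.83, 6.58, 8.56 and 7.33 TPM. Such a gap between CAC and NCAC at 6 weeks was found for 6.74% of all genes (977 genes), so 1 of 9 class I genes is near the background. The log2 fold change was 0.45 ± 0.20 (SE) and was not called with all libraries (adjusted p = 0.139).

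H2-T23 passed when the mock library of replicate 5 was left out of the joint fit, although that library is in neither group: the fold change stayed at 0.45, its SE fell to 0.13 and the adjusted p was 0.0251, with 9.56% of all genes called. The library enters through the pooled estimate of the spread within groups. The call did not hold when a further choice was made beside leaving it out, each added after seeing the data: without the CAC library of replicate 2 as well (0.34 ± 0.13, adjusted p = 0.0640), with TMM scaling (0.37 ± 0.13, adjusted p = 0.0880), or with only the 2 groups in the fit, where no mock library enters (adjusted p = 0.0621). It held when the CAC library of replicate 3 at 8 weeks was left out too (adjusted p = 0.0216) and with no filter on level (adjusted p = 0.0436). An F test took the 8 differences of CAC and NCAC from mock within weeks. It also took the changes of mock from 4 and from 6 weeks to 8 weeks, so its calls cannot be put down to the arms alone. It called 24.8% of all genes and no class I gene (adjusted p = 0.0508 for H2-T23). Without the mock library it called 23.8% of all genes and 1 class I gene, H2-T23 (adjusted p = 0.00701). Beside this gene, the 12 endothelial markers summed to 399 to 472 TPM in CAC at 6 weeks, against 315 to 387 TPM in NCAC, so these sums did not overlap. Of the 12, Ly6c1, Vwf and Slco1a4 rose in CAC against NCAC, by 0.71 ± 0.11, 1.09 ± 0.18 and 0.45 ± 0.14 (adjusted p = 0.000107, 0.000258 and 0.0350), and Kdr, the endothelial growth factor receptor, fell by 0.51 (SE 0.14, adjusted p = 0.0216). In this comparison 9.65% of all genes were called with all libraries. Without the mock library the median over the 12 markers was 0.11, against 0.083 over all genes, and 4 of 6 oligodendrocyte markers fell. The part of these cell types in the H2-T23 level was not tested.

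H2-D1 had the largest difference at 6 weeks. It was at 59.3, 136, 28.7, 47.5 and 49.3 TPM in CAC, against 26.6, 39.999, 30.9, 35.7 and 30.9 TPM in NCAC and 51.6, 43.9, 27.2, 8.90 and 31.9 TPM in mock. The groups overlapped. It differed from mock by 0.96 ± 0.44 (adjusted p = 0.299), and from NCAC by 0.77 ± 0.44 (adjusted p = 0.240). The difference from mock was 0.57 ± 0.44 (adjusted p = 0.672) without the mock library of 8.90 TPM, replicate 4, which also has the lowest ratio of H2-D1 to H2-K1 of all libraries, 0.373. The difference from NCAC was 0.45 (adjusted p = 0.497) without the CAC library of 136 TPM. Over the 9 genes, the median difference of CAC from mock at 6 weeks was 0.13, with 6 genes above 0, and of CAC from NCAC 0.21, with 9 of 9 above 0, against 0.027 and 0.083 over all genes. The group holds the high CAC library of replicate 2. B2m differed from mock by -0.11 with it and by -0.40 without both it and the mock library of replicate 5 (adjusted p = 0.0839), the lowest value for B2m over the settings tried.

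At 2 weeks 8 of the 9 tested genes were lower on average in CAC than in mock, with a median difference of -0.27 against 0.036 over all genes. None had an unadjusted p under 0.05 with all libraries, and B2m and Psmb9 did when the mock library of 8 weeks, which is in neither group, left the joint fit. Psmb9 was at 1.05, 1.04, 0.892, 0.719 and 0.781 TPM in CAC, against 1.27, 1.30, 1.84, 1.39 and 1.35 TPM in mock. Each CAC library lay below each mock library, as was the case in one direction or the other for 4.19% of all genes (608 genes). Its difference was -0.36 ± 0.24 (adjusted p = 0.377), and -0.36 ± 0.15 (adjusted p = 0.153) without the mock library of 8 weeks. B2m was at 189, 146, 154, 162 and 136 TPM in CAC, against 193, 177, 257, 216 and 178 TPM in mock. These groups overlapped through the first CAC library, and the difference was -0.37 ± 0.23 (adjusted p = 0.354).

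H2-D1 at 2 weeks was at 14.9, 10.6, 26.7, 24.5 and 21.4 TPM in CAC, against 44.3, 18.9, 55.5, 31.6 and 45.1 TPM in NCAC. The groups overlapped through a single NCAC library of 18.9 TPM, and the difference of -0.94 ± 0.44 was not called (adjusted p = 0.998). NCAC against mock had a median difference of -0.16 over the 9 genes, with 3 above 0. With all libraries none had an unadjusted p under 0.05, and without the mock library 1 did, Tapbp at -0.19 (adjusted p = 0.120). At 4 weeks the medians were -0.05 in CAC against mock, 0.08 in NCAC against mock and -0.11 in CAC against NCAC, and no class I gene had an unadjusted p under 0.05. H2-T23 did in both comparisons with mock once the mock library of 8 weeks was left out (0.31 and 0.30, adjusted p = 0.311 and 1.00). In that week CAC was on lane 3 and mock on lane 4, so lane and group cannot be told apart beyond what 1 NCAC library on lane 4 allows.

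Changes over time were read in the same fit. The difference of CAC from mock did not change by a called amount between 6 and 8 weeks for any gene in the table (0% called, 186 genes at an unadjusted p under 0.05). H2-D1 and Tap2 had the lowest p among the class I genes, with changes of -1.40 ± 0.60 and -0.40 ± 0.19 (adjusted p = 1.00 each). Without mock replicate 5 they were -0.78 ± 0.52 and -0.14 ± 0.14 (adjusted p = 1.00 each), and no class I gene had an unadjusted p under 0.05. Between 2 and 8 weeks, which lie on different lanes, 1.32% of all genes were called and no class I gene, with a median of -0.21 over the 9 genes with all libraries and 0.20 without mock replicate 5. In CAC at 8 against 6 weeks 0% of genes were called (476 at an unadjusted p under 0.05) and the median was -0.04.

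Mock at 8 weeks against mock at 4 weeks, both on lane 4, had 9 of 9 genes higher at 8 weeks with a median of 0.70, and 8 genes had an unadjusted p under 0.05, against 3 genes without replicate 5. H2-T23 was at 9.67, 8.88, 8.06, 8.41 and 39.6 TPM at 8 weeks, against 6.74, 7.26, 7.50, 5.57 and 4.68 TPM at 4 weeks. All 5 libraries of 8 weeks lay above those of 4 weeks. Such a gap in either direction was found for 7.55% of all genes (1095 genes), so 1 of 9 class I genes is near the background. The difference was 0.83 ± 0.20 (adjusted p = 0.241). Without replicate 5 it was 0.42 ± 0.14 (adjusted p = 0.444), and the median over the genes 0.18. No gene of the table was called in this comparison (0%, with 2059 genes at an unadjusted p under 0.05) or in mock at 8 against 6 weeks (0%, 563 genes), where 5 class I genes had an unadjusted p under 0.05 with the library and none without it.

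The wider pathway was counted in the same comparisons. None of the 8 other class I heavy chains, the 7 trimming and loading helpers such as Calr and Erap1, or the 3 further interferon-induced proteasome genes was called in any comparison with all libraries. Without the mock library 2 of these 8 heavy chains passed in CAC against NCAC at 6 weeks, where 9.56% of all genes were called. They were H2-Q1 at 0.66 ± 0.21 (adjusted p = 0.0379) and H2-M3 at 0.47 ± 0.16 (adjusted p = 0.0464). Of the 5 constitutive proteasome genes, Psmb5 and Psmb7 rose in NCAC against mock at 2 weeks, by 0.19 ± 0.06 and 0.18 ± 0.06 (adjusted p = 0.0394 and 0.0404), where 8.71% of all genes were called. Psme3, which encodes a proteasome activator subunit, rose in CAC against NCAC at 6 weeks, by 0.14 ± 0.05 (adjusted p = 0.0428), where 9.65% were.

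Of 24 interferon-induced genes tested, 5 fell in CAC against mock at 8 weeks and none rose, with a median of -0.36 and with 8.6% of all genes called. Tgtp2 and Iigp1, both among the 5, reach a mean of 1 TPM only through mock replicate 5, at 19.7 and 18.2 TPM there. Of the 22 genes that reach it without that library 3 fell, with a median of -0.31. The 4 with the lowest p were the guanylate-binding proteins Gbp2 (-0.91 ± 0.23, adjusted p = 0.00672), Gbp3 (-0.99 ± 0.28, 0.0173) and Gbp7 (-0.55 ± 0.14, 0.00724) and the immunity-related GTPase Tgtp2 (-1.09 ± 0.31, 0.0183). Without the mock library of replicate 5 none of the 22 tested was called, against 5.93% of all genes, and their median was -0.09. Gbp2 was then at -0.57 ± 0.21 (adjusted p = 0.0960) and Gbp3 at -0.58 ± 0.26 (0.192). In CAC against NCAC at 6 weeks 1 of the 24 was called, Ifit2, which rose by 0.28 ± 0.09 (adjusted p = 0.0405 with the mock library and 0.0328 without it). Of 20 tested regulators of interferon signalling and class I, Rfxap, a subunit of the RFX complex that binds class I and class II promoters, rose in CAC against mock at 8 weeks by 0.21 ± 0.06 (adjusted p = 0.0115) with the library and by 0.20 ± 0.06 (0.0417) without it, and in CAC against NCAC at 8 weeks by 0.23 ± 0.06 (adjusted p = 0.00784). Irf2, a repressor and activator of interferon genes, rose in CAC against NCAC at 6 weeks (0.28 ± 0.08, adjusted p = 0.0191) and at 8 weeks (0.24 ± 0.07, adjusted p = 0.0306). In NCAC against mock at 2 weeks 3 regulators rose, the interferon-gamma receptor chain Ifngr2, Rfxap and the kinase Jak1, by 0.26, 0.19 and 0.19 (adjusted p = 0.00835, 0.0445 and 0.0462). These 3 rose and 2 fell there once the mock library of 8 weeks was left out, Irf1 and Nfkb1, by 0.31 and 0.22 (adjusted p = 0.0426 and 0.0474), with 8.98% of all genes called. With all libraries 1 to 3 of 20 regulators were called in these comparisons, with 8.6%, 8.71%, 9.65% and 6.02% of all genes called. Counts this small do not set the regulators apart. The 3 that rose and 2 that fell without the mock library are a larger share of the 20 than 8.98%, and the list as a whole was not tested.

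Markers of several cell types were also called at 8 weeks. At 8 weeks 7 of 14 microglia markers fell in CAC against mock and none rose, with 8.6% of all genes called, and without the mock library 5 did, with 5.93% called. P2ry12, a microglial purine receptor, differed by -0.62 ± 0.11 (adjusted p = 0.000101) with it and by -0.60 ± 0.12 (0.000616) without it. The summed microglia markers were 498 to 686 TPM in CAC at 8 weeks, against 654 to 703 TPM in the 4 other mock libraries and 1234 TPM in replicate 5. Ighm, the heavy chain of IgM, fell in CAC against mock at 8 weeks by 1.77 on the log2 scale (SE 0.23, adjusted p = 1.26e-06), and its difference was -1.35 ± 0.19 (adjusted p = 9.04e-06) without replicate 5. Of the 12 endothelial markers 3 rose and 2 fell in CAC against mock at 8 weeks, with and without that library. Ly6c1, Vwf and Slc2a1 rose by 0.86 ± 0.10, 0.94 ± 0.17 and 0.64 ± 0.15 (adjusted p = 7.89e-08, 0.000189 and 0.00395), and Kdr fell by 0.78 (SE 0.13, adjusted p = 9.54e-05). Their summed level was 362 to 538 TPM in CAC at 8 weeks, against 341 to 396 TPM in mock. The part of these cells in the class I values was not tested.

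H2-D1 and H2-K1 share much of their sequence and are highly variable between mouse strains, so how reads were split between them is uncertain. The ratio of their TPM had a median of 1.83 over the 62 libraries and spanned 0.373 in mock at 6 weeks, replicate 4, to 2.55 in CAC at 6 weeks, replicate 1. It was under 1 in 6 libraries, which came from 5 groups of all 3 arms. In the library with the lowest ratio H2-D1 was at 8.90 TPM and H2-K1 at 23.9 TPM, and in NCAC at 4 weeks, replicate 5, they were at 9.87 and 22.4 TPM. In both, H2-D1 was below its median over all libraries and H2-K1 above its own.

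Within groups the class I genes varied together. Over 45 pairs, with each group's mean removed, Pearson's r of log2(TPM + 1) had a median of 0.808 and a range of 0.407 to 0.938 across 62 libraries. The median of Spearman's rho was 0.627. A permutation test with 100000 draws and Benjamini-Hochberg adjustment over the 45 pairs passed 45 by r and 44 by rho. Without the 2 libraries farthest on the x axis the median r was 0.653. Without mock replicate 5 alone it was 0.597, with a range of 0.139 to 0.866, and 41 pairs passed by r and 39 by rho. Without that library and the 2 then farthest on the x axis it was 0.509, with a range of 0.066 to 0.764. Pairs of other genes were not tested in this way, so no background share stands beside these counts.

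B2m and H2-K1, light and heavy chain of the same molecule, had the highest r of the pairs, 0.938 with all libraries and 0.866 without that one (rho 0.814 and 0.755, adjusted permutation p = 2.14e-05 and 3.21e-05 for r, where 1e-05 before adjustment is the smallest that the draws can give). The 2 inducible subunits Psmb8 and Psmb9 reached 0.913 and 0.803 (rho 0.778 and 0.712). Tap1 and Psmb9, with the shared promoter window printed with the promoters, reached 0.875 and 0.718 (rho 0.751 and 0.690), with the same adjusted permutation p for r as B2m and H2-K1 in these pairs. H2-D1 went least with the others: its r with Tapbp was 0.407 with all libraries and 0.139 without mock replicate 5, where it did not pass (rho 0.224 and 0.0905, adjusted permutation p = 0.0393 and 0.375 for r). By lane, the median r was 0.492 over the libraries of lane 3 and 0.871 over those of lane 4, and 0.677 over lane 4 without mock replicate 5.

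**Figure D4:**
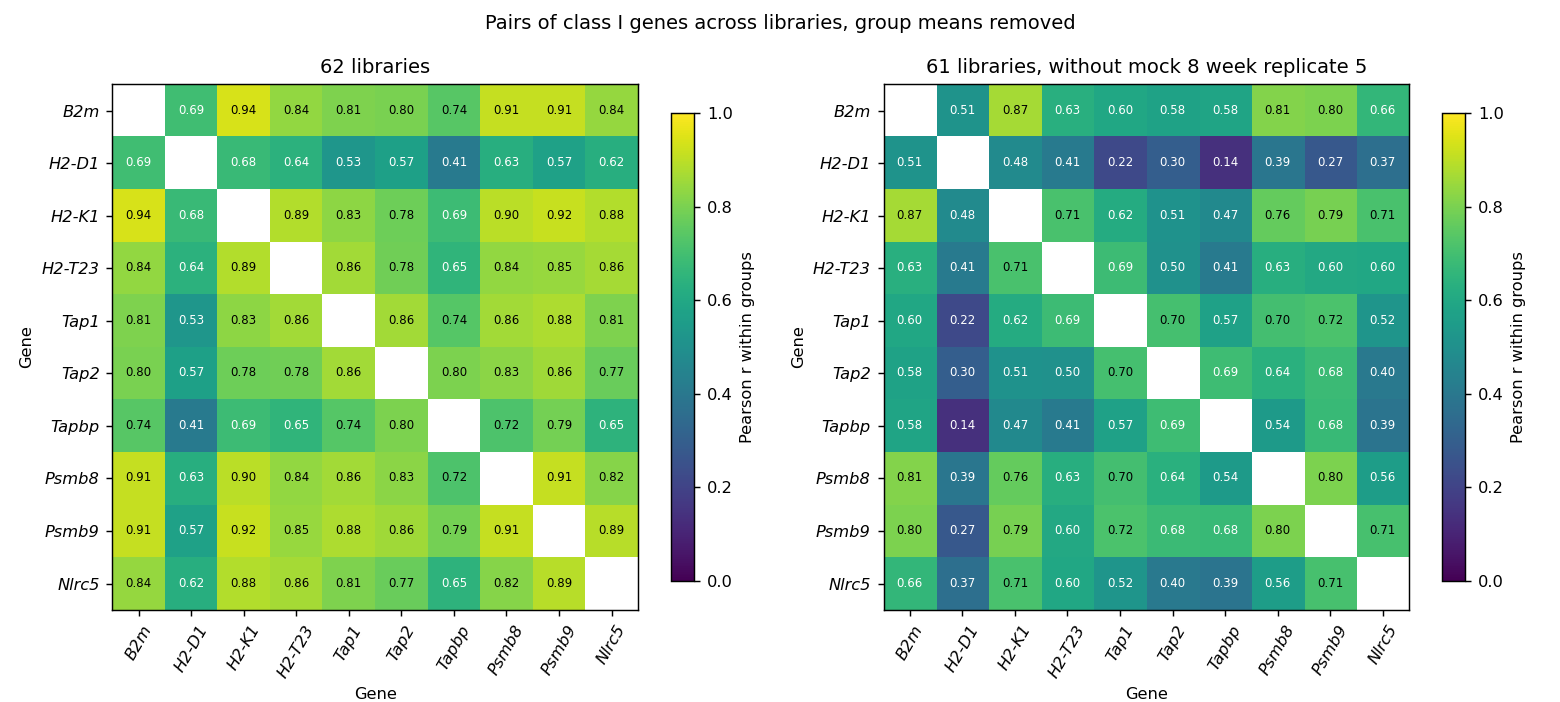
Pearson's r of log2(TPM + 1) between pairs of class I genes after removing group means, colour scale 0 to 1, over 62 libraries (left) and over 61 without the mock library of replicate 5 at 8 weeks (right). On the right, the row of H2-D1 is the darkest, with values down to 0.14 for Tapbp, and B2m with H2-K1 remains the highest at 0.87.

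The genes most like the mean of the 10 class I genes within groups were Irgm1 (r = 0.928), Csf2rb (0.914), Iigp1 (0.911), Irgm2 (0.907) and Cd74 (0.902) over 62 libraries. Irgm1, Irgm2 and Iigp1 are interferon-inducible GTPases, of which Iigp1 passed the filter on level only through mock replicate 5. Without mock replicate 5 the leading genes were Oasl2 (0.878), Irf7 (0.858), Gbp3 (0.835), Csf2rb (0.833) and Iigp1 (0.818), and Cd74 was not among the first 10. Over the 12 group means Irgm1 was among the first genes with all libraries (0.973), and Ifi30, a lysosomal thiol reductase of antigen processing, led without that library (0.967). These are descriptions, and the points share libraries, so a single library can set them.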

How the data were processed

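Neocortex RNA of 62 libraries in 12 groups was read from a single table of 47643 genes, deposited by the authors as TPM values that sum to 1000000 per library. Extraction with Trizol, stranded poly(A) libraries, an Illumina instrument and biological replicates are stated per the labels' protocols. The same text names other cells and a time of 3 weeks that no group here has, so it may not describe these libraries fully. The submitters' processing notes name mm10 as the build. For the aligner, counter, annotation and strand setting, what was used is not given in the sources used here. Of the symbols, 45108 matched GENCODE vM21.

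TPM holds no library total. Depth was therefore estimated from steps of low values, of which 86.3% of 207394 were whole reads within 0.05 reads. No 2 libraries were identical.

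The 14494 genes whose mean reached 1 TPM were transformed to log2(TPM + 1) and fitted across the 12 groups (50 residual degrees of freedom) with limma 3.58.1 in R 4.3.3, with trend and moderation, and p-values were adjusted by Benjamini-Hochberg within each comparison. Fold changes on this scale understate changes of low genes. The fit was tested on simulated data. The correlations used numpy 2.4.6 and scipy 1.17.1. Alternatives were a pseudocount of 0.1, no filter, TMM scaling (trims of 30% and 5%), robust moderation, a replicate block, a lane term, only the groups compared, voom on estimated reads, and leaving out each library or the 3 that stood apart in other-tissue markers.

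The genes and lists were chosen with earlier results of these data known. All 10 genes were named, with a fold change where the unadjusted p was under 0.05, and others only where given beside these or singled out after their values were seen. Of each list at most 4 called genes with the lowest p were to be named. A result on 1 further gene is not reported here.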

Additional observations from a re-analysis of the deposited data

Results flagged for a closer look

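Of 120 gene and group pairs, 25 held a library far from the others of its group by Dixon's test at 95%. Chance would give about 6 (1 in 20) if the pairs were independent and the values normally distributed. The genes vary together within groups, so 1 library can give several flags, and the 25 cannot be judged against that number. The mock library of replicate 5 at 8 weeks gave 10 of them, 1 for each class I gene: B2m at 935 TPM, H2-D1 at 336 TPM, H2-K1 at 203 TPM, H2-T23 at 39.6 TPM, Tap1 at 9.32 TPM, Tap2 at 18.6 TPM, Tapbp at 38.6 TPM, Psmb8 at 21.4 TPM, Psmb9 at 10.96 TPM and Nlrc5 at 5.16 TPM.

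The CAC library of replicate 2 at 6 weeks gave 6: B2m at 442 TPM, H2-D1 at 136 TPM, H2-K1 at 69.6 TPM, Tapbp at 29.3 TPM, Psmb8 at 7.75 TPM and Psmb9 at 2.64 TPM. The CAC library of replicate 3 at 8 weeks gave 4: H2-T23 at 12.2 TPM, Tap2 at 8.33 TPM, Psmb9 at 2.90 TPM and Nlrc5 at 0.783 TPM.

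The other 5 were single values. In NCAC at 2 weeks, replicate 2 was low for B2m, at 141 TPM against 191 to 208 TPM in its mates, and for H2-T23, at 4.36 TPM against 7.49 to 8.02 TPM. H2-T23 was high in CAC at 2 weeks, replicate 1, at 9.04 TPM against 7.00 to 7.40 TPM, and low in NCAC at 4 weeks, replicate 2, at 6.90 TPM against 8.00 to 8.45 TPM. Psmb9 was high in mock at 2 weeks, replicate 3, at 1.84 TPM against 1.27 to 1.39 TPM.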

How the results depend on the processing

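With all libraries no class I gene was called in 17 comparisons under a pseudocount of 0.1, no filter, TMM scaling, robust moderation, the replicate block, a lane term at 4 weeks, only the groups compared, or voom. Over 4102 fits of a gene, comparison and setting, 10 passed. In CAC against mock at 8 weeks, 3 class I genes passed without the 3 libraries that stood apart, and 0 to 3 passed with single libraries left out (3 without CAC replicate 3, 1 without mock replicate 3). In CAC against NCAC at 6 weeks the range was 0 to 1, with 1 without the mock library of replicate 5, and also 1 without it and CAC replicate 3 of 8 weeks or without it and the filter on level. The F test, which also holds changes of mock over time, called 0 with all libraries and 1 without that mock library. H2-T23 in CAC against NCAC at 6 weeks had adjusted p of 0.0216 to 0.311 over the settings. H2-K1 in NCAC against mock at 8 weeks was -0.68 in the fit of all libraries and 0.0117 (adjusted p = 0.999) without the mock library and with TMM scaling, and the cause was not tested. Same-numbered libraries of a week showed little joint deviation (correlations of -0.252 to 0.276, median 0.022, 60 pairs). Such values cannot show whether or not equal numbers mark paired samples. The replicate block left 0 class I genes called. Over all genes, counts of calls moved by over 1.5 times as follows. CAC against mock at 8 weeks had 498 with the replicate block and 2020 without the 3 libraries, against 1247. CAC against NCAC at 8 weeks had 290 with the block, 284 with only the groups compared and 1975 without the 3 libraries, against 873. CAC against NCAC at 6 weeks had 723 with TMM scaling, 713 with voom, 904 without the filter and 628 with only the groups compared, against 1399. CAC against mock at 2 weeks had 0 with only the groups compared and 353 without the 3 libraries, against 620, and NCAC against mock 7 with only the groups compared and 780 without the filter, against 1262. CAC against mock had 441 at 6 weeks without the 3 libraries, against 236, and 0 to 6 calls at 4 weeks. Its change between 2 and 8 weeks had 39 calls with only the groups compared, 76 without the filter, 106 with the block and 293 without mock replicate 5, against 191. Mock at 8 against 4 weeks had 127 calls with only the groups compared, against 0. NCAC against mock at 6 weeks, mock at 8 against 6 weeks and CAC at 8 against 6 weeks had 1 call each without the filter, and NCAC against mock at 4 weeks had 2 with the lane term, against 0. Depth limits Nlrc5 most, at a median of 32.2 estimated reads. Without the filter on level its difference at 8 weeks was -0.43 ± 0.17 in CAC against mock (adjusted p = 0.146), and without mock replicate 5 as well, a setting added after seeing the data, 0.0088 ± 0.071 (adjusted p = 1.00).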

Other observations

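Beside the class I genes, the mock library of replicate 5 at 8 weeks differed most from its mates in immunoglobulin genes. Igkc was at 652 TPM in it, against a mates' median of 1.08 TPM, and Iglc1, a lambda constant region, at 196 TPM against 0. Ccl8, a chemokine, was at 68.9 TPM against 0.211 TPM. Iglc1 and Ccl8 reach a mean of 1 TPM only through that library. Among the tested genes ranked by that difference on the log2(TPM + 1) scale, H2-K1 had rank 18, H2-D1 rank 21 and Tapbp rank 285.

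In the CAC library of replicate 2 at 6 weeks the ranking was led by Rpl14-ps1, a ribosomal protein pseudogene. Among its first 40 genes were Lag3, an immune checkpoint receptor, at 19.0 TPM against a mates' median of 2.25 TPM, Cxcl16, a chemokine, at 10.6 TPM against 1.06 TPM, and Tlr2, a receptor for bacterial lipoproteins, at 7.02 TPM against 1.06 TPM. H2-K1 had rank 25 there and B2m rank 39. These genes were chosen after their values were seen, and a single library gives no test.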
